A study of Arabidopsis thaliana with 12 samples.

Results

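The 4 genes for translation elongation factor EF1-alpha (EF1A-1 to EF1A-4), the polyubiquitin gene UBQ10, the actin gene ACT2 and the cytosolic glyceraldehyde-3-phosphate dehydrogenase genes GAPC1 and GAPC2 were followed through 12 mRNA-seq libraries of Arabidopsis thaliana. The 8 genes were chosen by locus identifier, out of 35651 listed in the gene count tables, as well-known housekeeping genes outside photosynthesis, with no measured value in the choice rule. The libraries came from 14-day-old seedlings of 4 genotypes with 3 replicates each: Col-0 wild type, the double mutant h1.1 h1.2, the double mutant cdca7a cdca7b, and the quadruple mutant h1.1 h1.2 cdca7a cdca7b. The study asked how linker histone H1 and CDCA7, a zinc-finger partner of the chromatin remodeller DDM1, act on DNA methylation. The h1.1 and h1.2 alleles are T-DNA insertions, the cdca7 alleles were made by CRISPR genome editing in Col-0, all groups share the Col-0 accession as background, and the study's methods describe each replicate as a single whole seedling, so every value mixes the cell types of a plant.

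For 9 of the 12 libraries, the genotype in the sample title differed from the genotype in the name of the count table. Libraries titled Col-0 had tables named h1, libraries titled h1.1 h1.2 had tables named cdca7, libraries titled cdca7a cdca7b had tables named Col-0, and the quadruple mutant had the same name in both places. Libraries are given below by title, with the table name where a comparison is drawn, and a replicate number is the one in the title. The transcripts of the 4 targeted genes were few, with 0 to 21 counts per library, and neither set of names gave the mutants the fewest counts for all 4 genes. H1.1 had 3, 2 and 10 counts in the libraries titled Col-0, 21, 1 and 0 in those titled h1.1 h1.2, 0, 0 and 0 in those titled cdca7a cdca7b, and 4, 6 and 5 in those titled h1.1 h1.2 cdca7a cdca7b. H1.2 had 1, 15 and 7, then 16, 3 and 9, then 0, 1 and 2, then 7, 0 and 10 counts in the same order of titles. Both H1 genes thus had counts in libraries of h1 mutants under titles as well as table names. Their lowest counts lay in the libraries titled cdca7a cdca7b, whose tables are named Col-0, which runs against both sets of names. CDCA7alpha had 4, 2 and 10 counts in the libraries titled Col-0 and 3, 2 and 8 in those titled cdca7a cdca7b, but 0, 0 and 5 in those titled h1.1 h1.2, whose tables are named cdca7, and 0, 0 and 0 in those of the quadruple mutant. Its low counts thus ran with the table names and against the titles. At 0 to 10 counts, and with the H1 genes running against both, this does not decide between the sets of names. CDCA7beta had 7 counts in the library titled Col-0 replicate 2, 1 in that titled cdca7a cdca7b replicate 2 and none elsewhere. Every direction given below by title is therefore that of the libraries labelled so.

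EF1-alpha is a GTPase that delivers aminoacyl-tRNA to the ribosome during each round of peptide elongation, and plants carry several nearly identical genes for it. UBQ10 encodes a chain of ubiquitin units that is cleaved into single ubiquitin molecules, the tag for proteasomal degradation. ACT2 encodes the main actin of vegetative tissues, and GAPC1 and GAPC2 encode the glycolytic enzyme that oxidizes glyceraldehyde 3-phosphate in the cytosol. Transcripts of all these genes are abundant in most plant tissues.

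On the TAIR10.1 assembly, EF1A-1 (AT1G07920) lay at chr1:2454771-2457321 and EF1A-2 (AT1G07930) at chr1:2458184-2460817, both on the plus strand, and EF1A-3 (AT1G07940) at chr1:2462949-2465545 on the minus strand. EF1A-4 (AT5G60390) lay on another chromosome, at chr5:24288596-24291020 on the plus strand. UBQ10 (AT4G05320) lay at chr4:2717977-2720308, ACT2 (AT3G18780) at chr3:6474710-6477204 and GAPC1 (AT3G04120) at chr3:1080942-1083690, all on the plus strand, and GAPC2 (AT1G13440) at chr1:4608077-4610878 on the minus strand. The counts refer to reads over annotated exons, whose merged length ran from 1711 bases in GAPC1 to 2504 bases in EF1A-3.

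The 4 EF1-alpha coding sequences are shown over one exonic stretch, bases 34 to 93 of each reading frame, because their likeness decides which reads can be assigned to a single gene. Capitals mark the 10 positions at which the 4 genes were not all alike. The stretches lie at chr1:2455592-2455651, chr1:2459047-2459106, chr1:2464700-2464759 and chr5:24289259-24289318 of the RefSeq TAIR10.1 genome and are written 5′ to 3′ on the coding strand.
EF1A-1: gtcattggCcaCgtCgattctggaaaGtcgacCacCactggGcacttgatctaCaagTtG
EF1A-2: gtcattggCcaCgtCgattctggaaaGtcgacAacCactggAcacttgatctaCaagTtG
EF1A-3: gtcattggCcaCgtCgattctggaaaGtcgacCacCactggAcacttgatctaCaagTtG
EF1A-4: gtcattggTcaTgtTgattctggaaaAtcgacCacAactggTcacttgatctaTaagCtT

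Elsewhere the 4 genes had stretches with no difference at all, and bases 709 to 768 of the reading frame were the same in each. A read that falls wholly inside such a stretch fits 4 places in the genome.
EF1A-1, EF1A-2, EF1A-3 and EF1A-4: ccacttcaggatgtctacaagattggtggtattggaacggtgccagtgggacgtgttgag

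Over the whole reading frame of 1350 bases, EF1A-1 and EF1A-3 differed at 6 positions, EF1A-1 and EF1A-2 at 16, and EF1A-2 and EF1A-3 at 15. EF1A-4 differed from the other 3 at 82 to 84 positions, an identity of 93.8 to 93.9%. GAPC1 and GAPC2 differed at 103 of 1017 coding positions, and ACT2 was 91.0% identical to its nearest relative examined, ACT8.

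Only uniquely aligned reads were counted, so shared sequence lowers the count of a gene without changing its transcript level. Of all 100-base exon windows of EF1A-1, 40.6% occurred once in the genome, against 75.3% in EF1A-2 and 59.6% in EF1A-3. EF1A-1 shared 59.4% of its windows with EF1A-3 and 25.1% with EF1A-2. EF1A-4, ACT2, GAPC1 and GAPC2 had 100% unique windows of this length, and UBQ10 had 99.6%. The read length is not given in the sources used here, and with windows of 50 bases the share fell to 32.8% in EF1A-1, 55.4% in EF1A-2 and 52.7% in EF1A-3. The levels of EF1A-1, EF1A-2 and EF1A-3 are therefore uncertain relative to the other genes, while one gene can be compared between libraries.

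**Figure D1:**
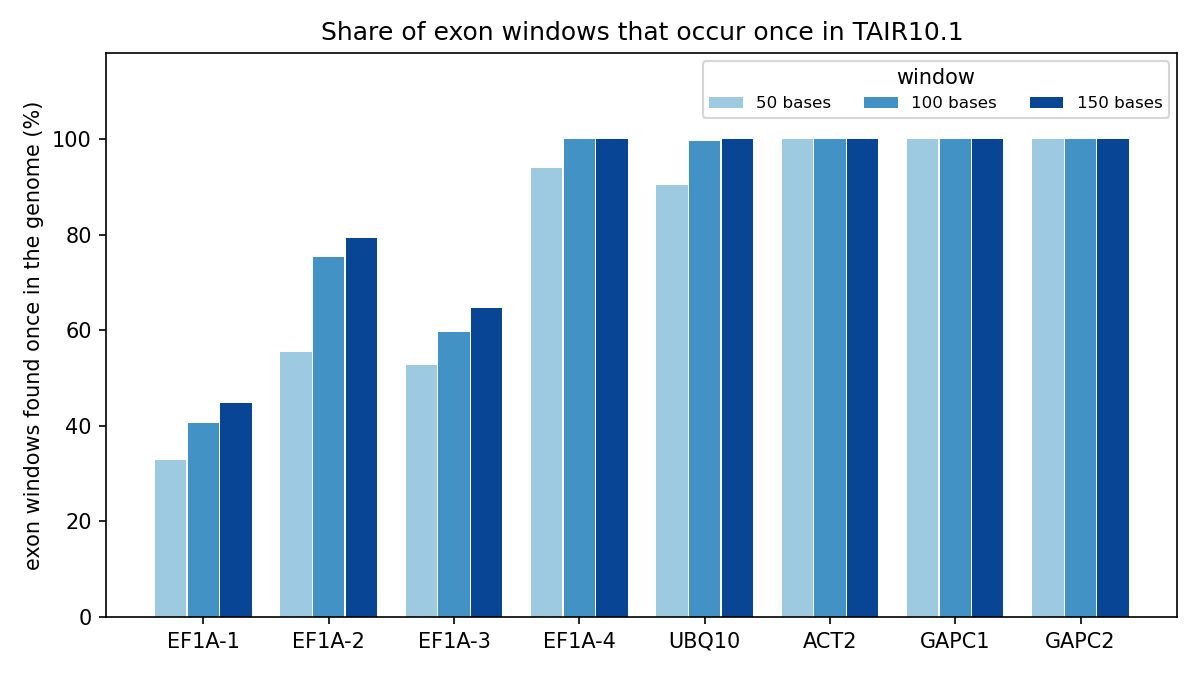
Share of exon windows, in percent, that occur once in the TAIR10.1 genome for each of the 8 genes (horizontal axis), with 1 bar for each window length (50, 100 and 150 bases). EF1A-1, EF1A-2 and EF1A-3 stand below the other 5 genes at every length, with 40.6%, 75.3% and 59.6% at 100 bases.

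Few of the counted reads were assigned to genes. The gene counts summed to 450869 to 833911 per library, out of 25236235 to 43462077 counted reads. Of these reads, 97.6 to 98.4% were recorded as overlapping no gene. Among all libraries, replicates 1 and 3 titled h1.1 h1.2 had the lowest such shares, at 97.6% and 97.9%. They had 2.38% and 2.07% of reads assigned to genes, against 1.56 to 1.92% in every other library. The same libraries had raised counts of the genes followed here, and whether this is linked to the read assignment was not tested. The kit used marks the strand of the RNA, and the strand setting of the counting is not given in the sources used here. Whether the counts come from the sense or the antisense strand of a gene was not tested. The library titled h1.1 h1.2 replicate 1 had counts in 17286 genes and replicate 3 in 13676, whereas the 9 libraries with other titles had counts in 9813 to 12585.

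The 8 genes had few counts in most libraries. Over the 9 libraries not titled h1.1 h1.2, their summed counts ran from 17 to 40 with a median of 23, and 25 of the 72 single values were 0. No value there was above 20, and 67 of 72 were at most 10. Summed over the 8 genes, the share of gene counts was 0.00228 to 0.00719% in these 9 libraries.

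The libraries titled h1.1 h1.2, with tables named cdca7, did not resemble each other. Replicate 1 had 1183 counts over the 8 genes, a share of 0.179% (95% Wilson interval 0.169 to 0.189%). Replicate 2 had 30 counts, a share of 0.00586% (0.00411 to 0.00837%) within the range of the other titles. Replicate 3 had 178 counts, a share of 0.0298% (0.0257 to 0.0345%), between them. These intervals cover counting error only, since reads without molecular identifiers are not independent molecules. In CPM, the usual count scaled to library size, here with TMM factors, the sums were 2004, 55.3 and 270.4, against 19.9 to 71.5 in the 9 libraries of other titles. In bulk RNA from a whole seedling, more cells of a type and more RNA per cell cannot be told apart.

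**Figure D2:**
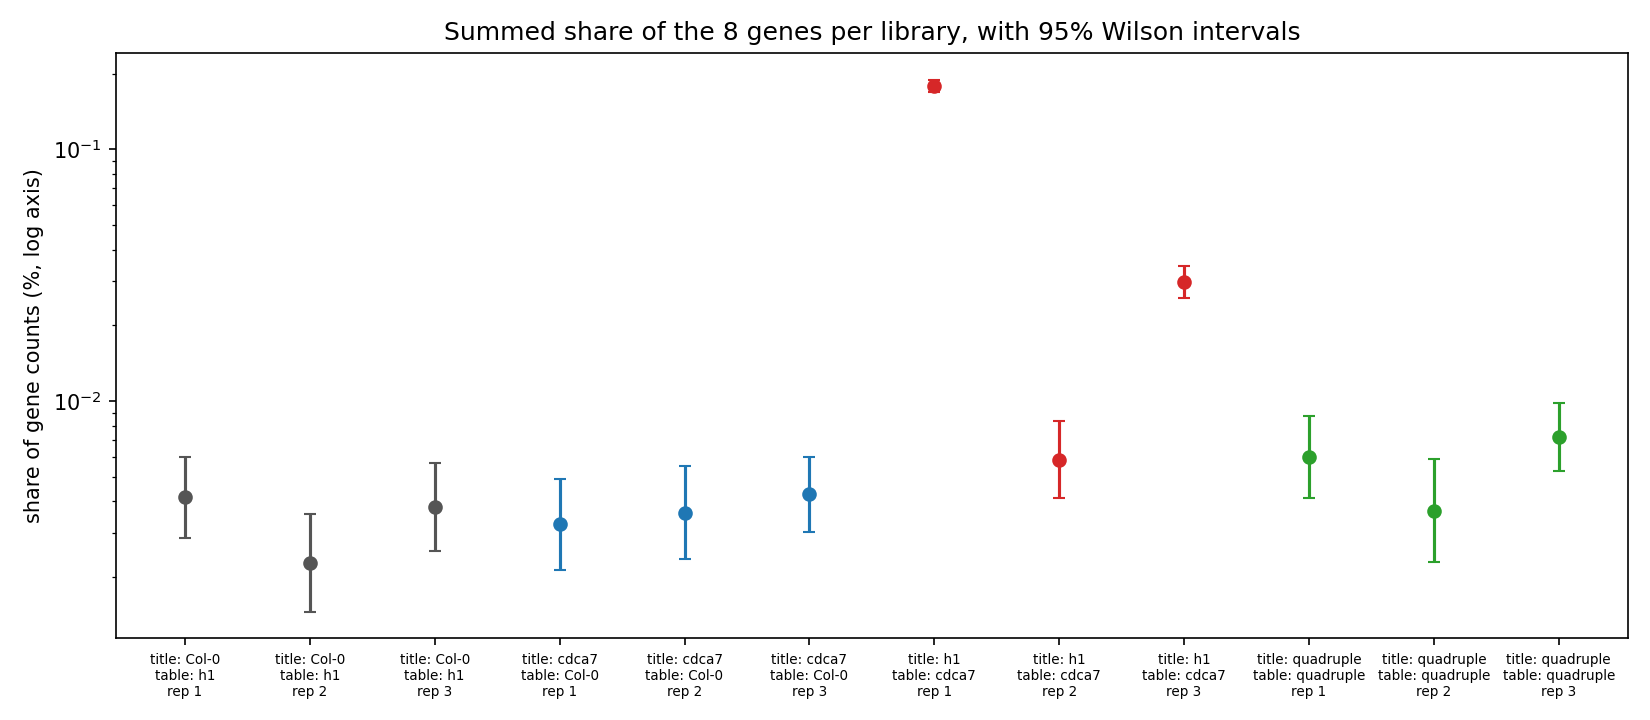
Summed counts of the 8 genes as a percentage of all gene counts (vertical log axis) in each of the 12 libraries, with 95% Wilson intervals as bars and colours for the titled genotype, and with the genotype by title and by table name on the horizontal axis (h1, cdca7 and quadruple stand for the double and quadruple mutants). Replicates 1 and 3 titled h1.1 h1.2 stand at 0.179% and 0.0298%, above the 9 libraries of other titles at 0.00228 to 0.00719%, and replicate 2 lies among them.

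The elongation factor genes had the highest and the lowest counts of the set. EF1A-4 had 11, 5 and 11 counts in the libraries titled Col-0, 5, 9 and 6 in those titled cdca7a cdca7b, 338, 8 and 46 in those titled h1.1 h1.2, and 5, 0 and 20 in those titled h1.1 h1.2 cdca7a cdca7b. Replicate 2 titled h1.1 h1.2 fell inside the range of the titled Col-0 libraries, so the groups overlapped. EF1A-1 had 0, 1 and 0 counts in the libraries titled Col-0, 0, 2 and 0 in those titled cdca7a cdca7b, 60, 2 and 18 in those titled h1.1 h1.2, and 0, 1 and 2 in those of the quadruple mutant. Outside the libraries titled h1.1 h1.2, EF1A-1 was thus at the edge of detection, since a count of 0 allows up to 3 counts, or 3.14 to 6.56 CPM depending on the library.

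EF1A-2, the neighbour of EF1A-1 on the chromosome, had 2, 1 and 0 counts in the libraries titled Col-0, 5, 3 and 3 in those titled cdca7a cdca7b, 44, 7 and 12 in those titled h1.1 h1.2, and 1, 1 and 6 in those of the quadruple mutant. It was the gene with the smallest contrast between libraries and the only one in which replicate 2 titled h1.1 h1.2 exceeded, in CPM, all 9 libraries of other titles. EF1A-3 had 2, 0 and 0 counts in the libraries titled Col-0, 1, 0 and 0 in those titled cdca7a cdca7b, 27, 0 and 6 in those titled h1.1 h1.2, and 0, 1 and 1 in those of the quadruple mutant. With 5 counts in all over the 9 libraries of other titles, EF1A-3 was the least covered gene.

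UBQ10 had 6, 4 and 2 counts in the libraries titled Col-0, 0, 0 and 7 in those titled cdca7a cdca7b, 254, 6 and 23 in those titled h1.1 h1.2, and 7, 7 and 0 in those of the quadruple mutant. Its lowest titled h1.1 h1.2 library, 11.1 CPM, was above all libraries titled Col-0 or cdca7a cdca7b, but below 2 of those of the quadruple mutant. ACT2 had 0, 4 and 0 counts in the libraries titled Col-0, 0, 0 and 0 in those titled cdca7a cdca7b, 62, 2 and 7 in those titled h1.1 h1.2, and 1, 0 and 6 in those of the quadruple mutant. In ACT2 the next highest library after replicate 1 titled h1.1 h1.2 was replicate 3 of the quadruple mutant, at 10.7 CPM against 10.6 CPM in replicate 3 titled h1.1 h1.2.

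The cytosolic dehydrogenase genes differed in the quadruple mutant. GAPC1 had 4, 0 and 2 counts in the libraries titled Col-0, 2, 2 and 5 in those titled cdca7a cdca7b, 131, 3 and 23 in those titled h1.1 h1.2, and 0, 0 and 0 in those of the quadruple mutant. GAPC2 had 3, 4 and 8 counts in the libraries titled Col-0, 9, 5 and 11 in those titled cdca7a cdca7b, 267, 2 and 43 in those titled h1.1 h1.2, and 13, 7 and 5 in those of the quadruple mutant. GAPC2 was the only gene of the 8 with counts in all 12 libraries, and its lowest CPM was in replicate 2 titled h1.1 h1.2, so that its lowest and its highest library carried the same title.

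**Figure D3:**
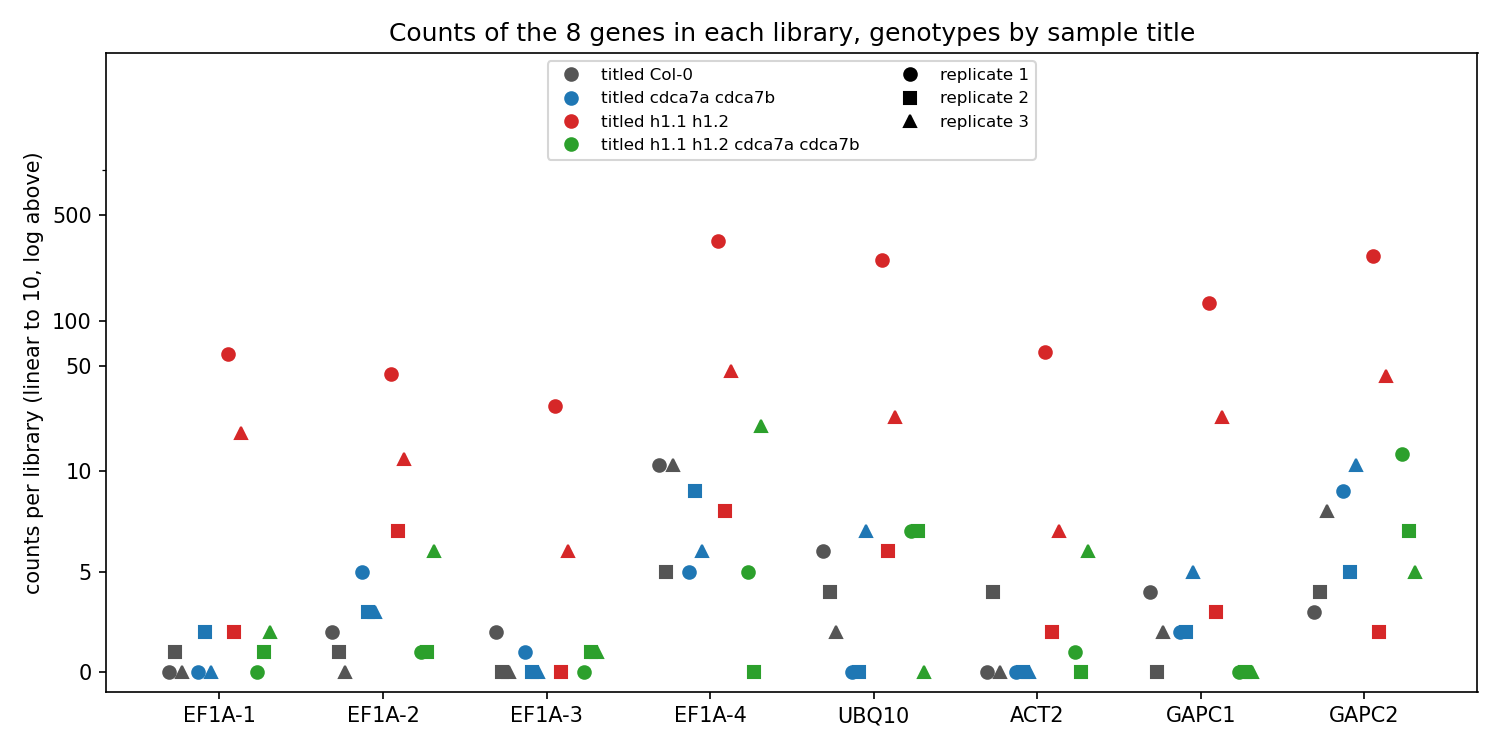
Counts of each of the 8 genes (horizontal axis) in each of the 12 libraries (vertical axis, linear up to 10 and logarithmic above), with colours for the titled genotype and symbols for the replicate. Replicate 1 titled h1.1 h1.2 is the highest point for every gene, from 27 counts in EF1A-3 to 338 in EF1A-4, while replicate 2 of that title sits with the other libraries.

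The excess in replicate 1 was seen in all 8 genes, and that in replicate 3 in 7 of them. Relative to the pooled CPM of the 9 libraries of other titles, replicate 1 was 19.0-fold (EF1A-2) to 95-fold (EF1A-1) higher, with a median of 52.4. Replicate 3 was 4.65-fold (EF1A-2) to 25.6-fold (EF1A-1) higher, with a median of 5.79. Replicate 2 had ratios of 0 (EF1A-3, no counts) to 3.45 (EF1A-1), with a median of 1.88. The EF1A-1 and EF1A-3 ratios rest on 6 and 5 pooled counts.

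All 8 genes exceeded every one of these 9 libraries in replicate 1 and 7 of 8 did so in replicate 3, ACT2 being the exception. Among the 10433 genes with at least 20 counts over all libraries, 41.0% exceeded all 9 libraries in replicate 1 and 21.5% in replicate 3. In replicate 2 only EF1A-2 did so, 1 of 8 against 10% of genes.

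**Figure D4:**
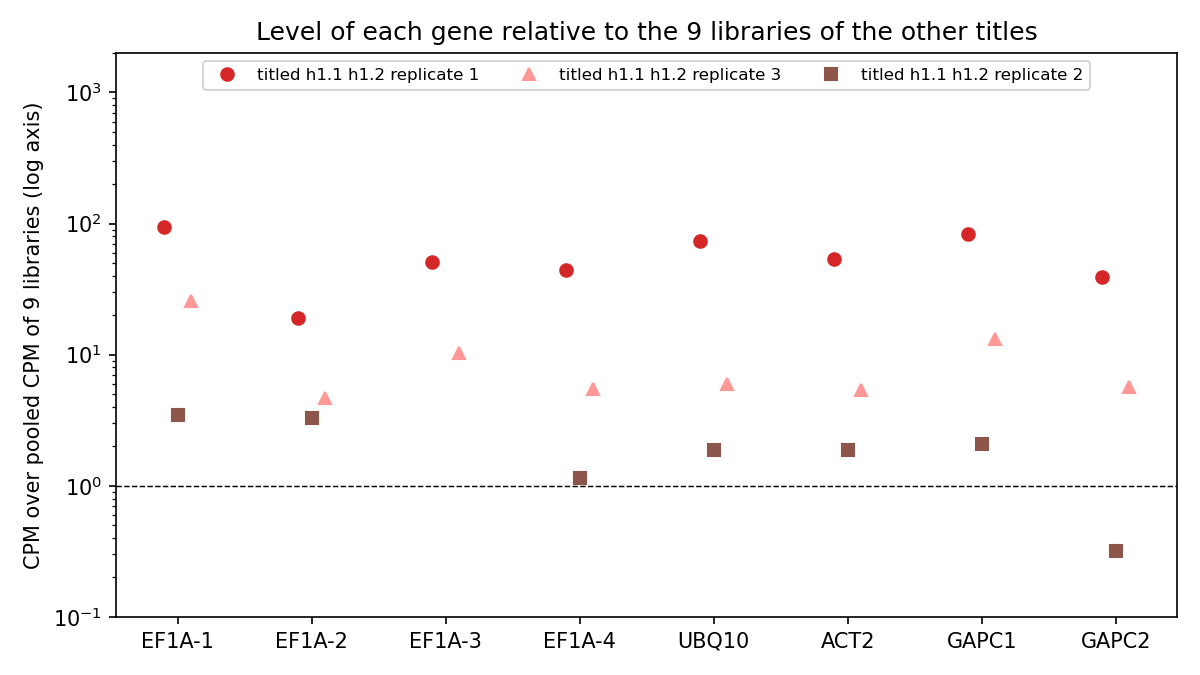
CPM of each of the 8 genes (horizontal axis) in the 3 libraries titled h1.1 h1.2, divided by the pooled CPM of the 9 libraries of other titles (vertical log axis, with a dashed line at equality). Replicate 1 lies at 19.0 to 95, replicate 3 at 4.65 to 25.6 and replicate 2 at 0.318 to 3.45, except that EF1A-3, with no counts in replicate 2, has no point there.

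Levels of different genes were compared per kilobase of exon. In replicate 1 titled h1.1 h1.2, GAPC2 and EF1A-4 led with 253 CPM per kb (exact 95% Poisson interval 223 to 285) and 246 CPM per kb (221 to 274), followed by UBQ10 with 211 CPM per kb (185 to 238). The intervals of these 3 neighbours overlap. GAPC1 stood apart at 130 CPM per kb (108 to 154). EF1A-1 at 54.7 CPM per kb (41.7 to 70.4), ACT2 at 43.5 (33.3 to 55.7) and EF1A-2 at 39.4 (28.6 to 52.8) again overlap, and EF1A-3 was lowest at 18.3 CPM per kb (12 to 26.6). Dividing by the unique share of 100-base windows moved EF1A-1 to 135 CPM per kb, beside GAPC1, whereas EF1A-2 reached 52.3 and EF1A-3 30.6.

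The order was much the same over the 9 libraries of other titles, at far lower levels. Pooled over them, GAPC2 had 6.48 CPM per kb (5 to 8.26), EF1A-4 5.52 (4.32 to 6.95) and UBQ10 2.88 (1.98 to 4.04). EF1A-2 followed with 2.07 CPM per kb (1.3 to 3.14), ahead of GAPC1 with 1.56 (0.875 to 2.58), ACT2 with 0.812 (0.405 to 1.45), EF1A-1 with 0.576 (0.211 to 1.25) and EF1A-3 with 0.356 (0.116 to 0.831). Intervals of genes next to each other in this order overlapped, apart from EF1A-4 and UBQ10. Even EF1A-4 was far from an abundant transcript in these tables, since the best rank of any of the 8 genes by count within one of the 9 libraries was 2282, against a rank of 241 for EF1A-4 in replicate 1 titled h1.1 h1.2.

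The make-up of the set in replicate 1 titled h1.1 h1.2 differed from that of the 9 pooled libraries beyond counting error only in EF1A-2 of the 8 genes. EF1A-2 took 9.61% of the summed counts of the 8 genes over the 9 libraries (95% Wilson interval 6.43 to 14.1%) and 3.72% (2.78 to 4.96%) in replicate 1 titled h1.1 h1.2, a lower share outside the counting interval. In replicate 3 it took 6.74% (3.9 to 11.4%), which overlaps both, and in replicate 2 23.3% (11.8 to 40.9%). The lower share was thus that of a single library. In the same comparison of the 9 libraries with replicate 1, the other genes had overlapping intervals. UBQ10 took 14.4% (10.4 to 19.5%) and 21.5% (19.2 to 23.9%), with intervals that just overlap. EF1A-4 took 31.4% (25.8 to 37.7%) and 28.6% (26.1 to 31.2%), and GAPC2 took 28.4% (22.9 to 34.5%) and 22.6% (20.3 to 25%), and both pairs of intervals overlap.

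Genotypes were compared in all 6 pairs by edgeR's quasi-likelihood test with Benjamini-Hochberg adjustment over all genes tested, and a gene was called where its adjusted p was below 0.05 and its log2 fold change was 1 or more in size. A filter on low counts kept 4461 genes and only EF1A-4 and GAPC2 of the 8. Both passed through their high libraries, and the other 6 were too low to be tested there. The 6 comparisons share libraries with each other and are not independent.

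Between libraries titled h1.1 h1.2 and titled Col-0 (tables named cdca7 against h1), both tested genes were called higher, beside 2.82% of all tested genes. The high libraries through which both passed the filter include replicates 1 and 3 titled h1.1 h1.2. That share is therefore no matched background for these genes. GAPC2 averaged 174 ± 243 CPM (SD, n = 3) against 7.17 ± 4.81 CPM (SD, n = 3), with a log2 fold change of 4.61 (SE 1.08, edgeR adjusted p = 0.0296). EF1A-4 averaged 219 ± 307 CPM (SD, n = 3) against 13.2 ± 6.90 CPM (SD, n = 3), with a log2 fold change of 4.09 (SE 1.08, edgeR adjusted p = 0.0453). For both genes the SD of the first group was larger than its mean, and the libraries of both groups overlapped. The size of the differences depended on replicate 1, since without it the log2 fold change was 2.28 in GAPC2 (edgeR adjusted p = 0.292) and 1.70 in EF1A-4 (edgeR adjusted p = 0.479). Then neither was called, and 1 of the 2 had an unadjusted p below 0.05. Both calls were also lost without any one of the libraries titled Col-0, at similar fold changes (edgeR adjusted p = 0.0948 to 0.131 in GAPC2 and 0.131 to 0.172 in EF1A-4). That of EF1A-4 was lost without any one library titled cdca7a cdca7b, at an edgeR adjusted p of 0.0581 to 0.0589, and without replicate 1 of the quadruple mutant, at 0.0566. Without replicates 1 and 3, a step added after seeing the data, the log2 fold change of GAPC2 was -0.89.

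The same 2 genes had large differences that missed the threshold in the other comparisons with the libraries titled h1.1 h1.2. Against those titled cdca7a cdca7b (tables named cdca7 against Col-0), EF1A-4 had a log2 fold change of 4.30 (SE 1.11, edgeR adjusted p = 0.0567) and GAPC2 of 3.71 (SE 1.02, edgeR adjusted p = 0.0666). Both had an unadjusted p below 0.05, and DESeq2 called both, while edgeR called 2.02% of all tested genes higher. In the quadruple mutant relative to titled h1.1 h1.2 (table cdca7), EF1A-4 had a log2 fold change of -3.75 (SE 1.08, edgeR adjusted p = 0.122) and GAPC2 of -3.33 (SE 1.01, edgeR adjusted p = 0.139), both with an unadjusted p below 0.05 and neither called by DESeq2. There edgeR called 0.179% of tested genes lower.

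None of the 2 genes was called in the 3 comparisons without the libraries titled h1.1 h1.2, by edgeR or DESeq2, and 0 had an unadjusted p below 0.05. Between titled cdca7a cdca7b and titled Col-0 (tables named Col-0 against h1), GAPC2 had a log2 fold change of 0.90 (SE 1.16) and EF1A-4 of -0.22 (SE 1.21), where 0.426% of all tested genes were called in either direction. The quadruple mutant relative to titled Col-0 gave 1.28 (SE 1.16) in GAPC2 and 0.34 (SE 1.18) in EF1A-4, where 0.0448% of tested genes were called. Relative to titled cdca7a cdca7b it gave 0.38 (SE 1.1) and 0.56 (SE 1.22), where 0.426% were called. These standard errors are larger than a 2-fold change, which is 1 on the log2 scale.

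Whether loss of CDCA7 acted differently with and without H1 was tested as an interaction, once by titles and once by table names. By titles, the interaction was -4.23 on the log2 scale in GAPC2 (SE 1.53, edgeR adjusted p = 0.233) and -3.53 in EF1A-4 (SE 1.63, edgeR adjusted p = 0.384). By table names, it was -2.43 in GAPC2 (SE 1.57, edgeR adjusted p = 0.735) and -3.97 in EF1A-4 (SE 1.62, edgeR adjusted p = 0.617). No call was made under either naming, by edgeR or by DESeq2, beside 1.08% of all tested genes by titles and 0% by table names, with 2 of these genes by titles and 1 by table names at an unadjusted edgeR p below 0.05.

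Without the filter all 8 genes could be tested, among 23140 genes with counts. Between titled h1.1 h1.2 and titled Col-0, 7 of 8 were called higher, beside 2.23% of all genes, and the median log2 fold change was 4.20 over the 8 genes and 0.50 over all genes. The largest change was in EF1A-1, with a log2 fold change of 5.79 (edgeR adjusted p = 0.000432), and EF1A-4 had 3.69 (edgeR adjusted p = 3.41e-10), GAPC1 4.47 (edgeR adjusted p = 7.54e-06), UBQ10 4.41 (edgeR adjusted p = 7.49e-10) and ACT2 4.04 (edgeR adjusted p = 0.0142). EF1A-3, with a log2 fold change of 3.65, was the exception (edgeR adjusted p = 0.295). On the same counts, the SE was 0.51 without the filter and 1.08 with it in EF1A-4, and 0.58 and 1.08 in GAPC2. The p-values without the filter thus understate the spread between seedlings. Without replicate 1 titled h1.1 h1.2, 0 of the 8 were called by edgeR, 5 had an unadjusted p below 0.05, and the median log2 fold change of the 8 was 2.02.

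Relative to titled cdca7a cdca7b, 6 of 8 genes were called higher in titled h1.1 h1.2 without the filter, beside 1.91% of all genes, the exceptions being EF1A-2 and EF1A-3. Without replicate 1 titled h1.1 h1.2, 0 were called by edgeR, 4 had an unadjusted p below 0.05, and the median log2 fold change of the 8 fell from 4.12 to 2.23. ACT2 had no counts in any library titled cdca7a cdca7b. Its mean level in titled h1.1 h1.2 was thus at least 25-fold higher, taking 3 counts over the group as the floor, and at least 4.5-fold higher without replicate 1. This bound covers counting error only, not the spread of 105, 3.69 and 10.6 CPM between replicates 1, 2 and 3. In the quadruple mutant relative to titled h1.1 h1.2, 5 of 8 were called lower, beside 1.28% of all genes. Without replicate 1 titled h1.1 h1.2, 0 were called by edgeR, 1 had an unadjusted p below 0.05, and the median log2 fold change went from -3.37 to -1.43. GAPC1, with no counts in the quadruple mutant, was at least 43.3-fold below the mean of titled h1.1 h1.2 by the same floor, and at least 10.02-fold below it without replicate 1. That mean spans 222, 5.53 and 34.9 CPM in replicates 1, 2 and 3, a spread that the bound does not cover. In the 3 comparisons without the libraries titled h1.1 h1.2, 0 of 8 were called by edgeR without the filter. In titled cdca7a cdca7b against titled Col-0, 0.238% of all genes were called and 0 of the 8 had an unadjusted p below 0.05. In the quadruple mutant, 0.164% of genes were called and 1 of the 8 had such a p against titled Col-0, and 0.406% and 2 of the 8 against titled cdca7a cdca7b. The interaction was called in 3 of 8 genes by titles, beside 1.09% of all genes, and in 3 of 8 by table names, beside 0.519%. Both counts were 0 by edgeR without replicate 1 titled h1.1 h1.2, with 2 genes by titles and 1 by table names at an unadjusted p below 0.05.

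Libraries of the groups seldom separated completely. Between titled h1.1 h1.2 and titled Col-0, EF1A-1, EF1A-2 and UBQ10 had no overlap in CPM, 3 of 8 beside 12% of the 10433 genes. Relative to titled cdca7a cdca7b, EF1A-2, UBQ10 and ACT2 had none, 3 of 8 beside 11.3% of genes. EF1A-2 was also higher in every library titled cdca7a cdca7b than in those titled Col-0, at 4.10 to 7.71 CPM against 0 to 3.06 CPM, 1 of 8 beside 5.47% of genes, and these values rest on 11 and 3 counts. In the quadruple mutant, EF1A-1, EF1A-2 and GAPC1 were lower than in every library titled h1.1 h1.2, 3 of 8 beside 8.46% of genes, and GAPC1 was lower than in every library titled cdca7a cdca7b, 1 of 8 beside 4.75%.

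Other genes of the same families and pathways were also high in replicate 1, and fewer of them in replicate 3. Among the 10433 genes with at least 20 counts, 41.0% exceeded the 9 libraries in replicate 1 and 21.5% in replicate 3. The lists below also hold genes with fewer counts. Calls for titled h1.1 h1.2 against titled Col-0 stand beside 2.82% of all tested genes called higher by edgeR. Among 8 other ubiquitin genes, UBQ5, which encodes ubiquitin fused to a ribosomal protein, had 112, 0 and 13 counts in the libraries titled h1.1 h1.2 and 0 to 2 in the 9 libraries of other titles. All 8 exceeded the 9 libraries in replicate 1, and 7 did in replicate 3. Of 7 other actin genes, 5 exceeded them in replicate 1 and 3 in replicate 3. The former included ACT7, the actin of young growing tissue, with 39, 4 and 8 counts against 0 to 6. ACT12, an actin known from pollen, had no counts in any library. No other actin gene passed the filter, and the 1 other ubiquitin gene that passed was not called by edgeR for titled h1.1 h1.2 against titled Col-0, although its unadjusted p was below 0.05 and DESeq2 called it.

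Tubulin, the subunit of microtubules, gave a similar picture with more variation among its genes. Of 15 tubulin genes, 12 exceeded the 9 libraries in replicate 1 and 9 in replicate 3, beside 41.0% and 21.5% of genes. TUB2 had 111, 2 and 14 counts against 0 to 6, whereas TUA2 had 78, 56 and 80 counts against 33 to 63. Of the 4 that passed the filter, edgeR called 0 and DESeq2 called 2 between titled h1.1 h1.2 and titled Col-0, with 3 at an unadjusted edgeR p below 0.05.

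In cytosolic glycolysis, 11 of 13 listed genes exceeded the 9 libraries in replicate 1 and 4 in replicate 3, beside 41.0% and 21.5% of genes. The triose phosphate isomerase gene cTPI had 116, 2 and 18 counts against 0 to 6. Of the 3 genes of this list that passed the filter, 1 was called higher in titled h1.1 h1.2 than in titled Col-0, the enolase gene ENO2, with 107, 4 and 22 counts against 5, 6 and 3 (log2 fold change 3.53, edgeR adjusted p = 0.0311).

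Of 12 other translation factor genes, 11 exceeded the 9 libraries in replicate 1 and 6 in replicate 3, beside 41.0% and 21.5% of genes. The elongation factor gene eEF2 (LOS1), whose product moves the ribosome along the mRNA, had 173, 5 and 40 counts against 4, 3 and 6 in titled Col-0 (log2 fold change 4.28, edgeR adjusted p = 0.0233), the only edgeR call among the 3 tested, where DESeq2 called all 3. By contrast eEF1Balpha2, a subunit of the exchange factor that recharges EF1-alpha, had 65, 44 and 64 counts against 27 to 63 in the 9 libraries. Among other dehydrogenase genes, the chloroplast genes GAPA1, GAPA2 and GAPB were called higher, 3 of 4 tested, with log2 fold changes of 4.15, 4.73 and 3.93 (edgeR adjusted p = 0.0118, 0.0176 and 0.0297). These calls stand beside 2.82% of all tested genes. Of all 6 other dehydrogenase genes, 5 exceeded the 9 libraries in replicate 1 and 4 in replicate 3, beside 41.0% and 21.5% of genes. The plastidic glycolytic gene GAPCp1 had 44, 26 and 64 counts against 17 to 46.

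Genes often recommended as low-variance references behaved unevenly. UBC21, a ubiquitin-conjugating enzyme gene, had 59, 78 and 65 counts in titled h1.1 h1.2 and 46 to 121 in the 9 libraries. The cyclophilin gene ROC1 had 71, 19 and 43 counts against 5 to 25. Summed over 8 such genes, the share of gene counts was 0.0265, 0.0193 and 0.0192% in the 3 libraries titled h1.1 h1.2 and 0.0105 to 0.0199% in the others. This sum is mostly UBC21 and ROC1, the most counted genes of the list. Gene by gene, 6 of 8 exceeded the 9 libraries in replicate 1, beside 41.0% of genes, and 2 of 8 in replicate 3, beside 21.5%. Those shares are over genes with at least 20 counts, which only 4 of these 8 had. Of the 2 that passed the filter, 0 were called by edgeR or DESeq2 between titled h1.1 h1.2 and titled Col-0, and 1 had an unadjusted p below 0.05.

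Markers of green tissue moved with the 8 genes. The 13 listed genes for Rubisco small subunits, Rubisco activase and light-harvesting and photosystem proteins took 2.39, 0.0488 and 0.432% of gene counts in replicates 1, 2 and 3 titled h1.1 h1.2 and 0.0499 to 0.0878% in the 9 libraries. All 13 exceeded the 9 libraries in replicates 1 and 3, beside 41.0% and 21.5% of genes, and none of them was at 0 in any library. All 13 were called higher in titled h1.1 h1.2 than in titled Col-0, beside 2.82% of all tested genes, with log2 fold changes of 3.02 to 4.96. Without replicate 1, edgeR called 2 of the 13 markers, 1 of the 4 other dehydrogenase genes and 0 genes of the glycolysis, translation factor, ubiquitin and tubulin lists, where 0, 2, 0 and 2 had an unadjusted p below 0.05. The part of green tissue in the levels of the 8 genes was not tested.

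**Figure D5:**
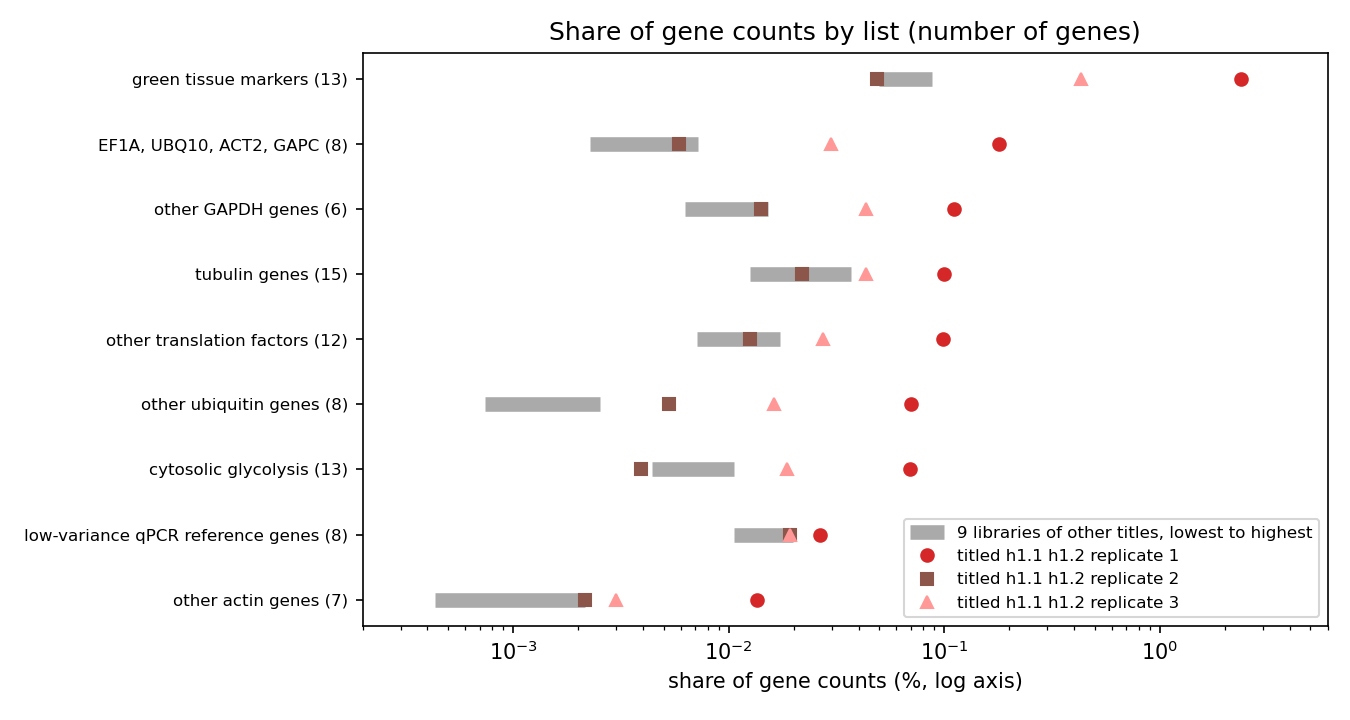
Share of all gene counts, in percent on a log axis, taken by each list of genes (vertical axis, number of genes in brackets). Points are the 3 libraries titled h1.1 h1.2 and grey bars run from the lowest to the highest of the 9 libraries of other titles. Replicate 1 lies above the grey bar in every list, at 51.2 times the median of the 9 libraries in the other ubiquitin genes, 47.1 times in the EF1A, UBQ10, ACT2 and GAPC set, 42.2 times in the green tissue markers and 1.72 times in the summed low-variance reference genes.

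The genes whose pattern over the 12 libraries was most like the summed level of the 8 genes were all photosynthetic. By Pearson's r of log2(CPM + 1) over 12 libraries, among 4459 genes, these were LHCB5 (AT4G10340, r = 0.987), LHB1B2 (AT2G34420, r = 0.983), PSBO1 (AT5G66570, r = 0.983), LHB1B1 (AT2G34430, r = 0.980) and LHCA4 (AT3G47470, r = 0.978). LHB1B2, PSBO1 and LHB1B1 are also among the green tissue markers above, so for them this is not a separate observation. The points share their libraries and scaling, and replicate 1 titled h1.1 h1.2 lies far from the rest, so the correlation is a description. LHCB5, a minor antenna protein of photosystem II, had 417, 9 and 106 counts in the libraries titled h1.1 h1.2 and 5 to 15 in the others.

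Genes next to the 8 loci were examined for counts that rose with those of the 8 genes. Outside the set, only AT3G18790 beside ACT2 and AT3G04130 beside GAPC1 lie downstream on the same strand. The others lie upstream or on the opposite strand, so transcripts running past their genes were not tested at those loci. Of 10 other listed genes within 1000 bases, 9 had at most 8 counts in replicate 1 titled h1.1 h1.2, and 7 of these had none. AT3G18790 had 8 counts there and RNL, beside EF1A-1, had 5, against 0 to 5 and 0 to 2 in the 9 libraries of other titles. In replicate 3, AGD13, beside UBQ10 on the opposite strand, had 5 counts, against 0 in replicates 1 and 2 and in the libraries of other titles. The remaining gene of the 10, AT5G60400, lies on the opposite strand and overlaps the 3′ end of EF1A-4 by 28 bases. It had 15, 11 and 15 counts in the libraries titled h1.1 h1.2 and 9 to 29 in the 9 others, so it did not share the excess of EF1A-4.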

How the data were processed

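Seedling mRNA (500 ng of total RNA per library) was sequenced as stranded libraries, and per the study's methods the authors trimmed reads with Trim Galore 0.6.7, aligned one read end to TAIR10 with STAR 2.7.11a, kept uniquely mapped reads with under 5% mismatches, and deposited HTSeq 0.13.5 read counts per gene without normalization. The annotation release and strand setting are not given in the sources used here. The 5 HTSeq summary lines, which named no gene and held the reads overlapping none, were left out of library sizes. Transposon tables were not used here.

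Counts of 12 libraries entered a single fit of group means in edgeR 4.0.16 (R 4.3.3) with filterByExpr, TMM factors of 0.867 to 1.15, the quasi-likelihood test and Benjamini-Hochberg adjustment. DESeq2 1.42.0 served as an alternative. On simulated data for titled cdca7a cdca7b against titled Col-0 (4162 genes), 71% of log2 changes of 2 and 85% of those of 3 were recovered, with 7 false calls. The changes were planted in 200 genes above a minimum mean count, with the spread drawn from the fitted trend and no outlying library. These rates need not hold for GAPC2 and EF1A-4, whose standard errors in this comparison were 1.16 and 1.21. Groups came from sample titles, and each comparison was also read by table names. Replicate numbers did not pair libraries. Per-kilobase levels used merged exons of the RefSeq TAIR10.1 annotation, which has the TAIR10 coordinates. Replicates are single seedlings, so p-values of the filtered fit rest on the spread between seedlings, as 1 estimate per gene shared by all groups. The libraries titled h1.1 h1.2 varied more than the others, with a GAPC2 SD of 243 CPM against 2.70 to 9.53 CPM. The shared estimate can therefore understate the spread of that group. The p-values of the fit without the filter understate the spread between seedlings further. Genes described were the 8 members and, by rule, family and pathway lists, the called genes of those lists and the 5 genes most alike in pattern. The genes and lists were chosen with earlier results of these data known. UBQ5, cTPI, TUB2, TUA2, ACT7, ACT12, UBC21, ROC1, eEF1Balpha2 and GAPCp1 were picked as examples after their values were seen.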

Additional observations from a re-analysis of the deposited data

How the results depend on the processing

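Of 174 counts of the 8 genes called under alternative settings, 148 stayed within 1.5 times the main count. The main count was 0 in every comparison except titled h1.1 h1.2 against titled Col-0. Most of these unchanged counts are therefore 0 against 0, and the total does not describe how stable the calls of that comparison were. For titled h1.1 h1.2 against titled Col-0 the main count was 2. It was 7 without the filter and 0 when only the 6 libraries of the comparison entered the fit. It was also 0 without replicates 1 and 3, with or without the filter, and without replicate 1 and the filter (added after seeing the data). Leaving out one library at a time gave 0 to 6, with 6 reached where a smaller group let more of the genes through the filter. For titled h1.1 h1.2 against titled cdca7a cdca7b, where the main count was 0, it was 2 with DESeq2, 2 with total counts in place of TMM, 6 without the filter and 0 to 5 with one library left out. For the quadruple mutant against titled h1.1 h1.2, it was 5 without the filter and 0 to 5 with one library left out. The interaction by titles gave 3 without the filter and 0 to 2 with one library left out, and that by table names gave 3 without the filter.

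With a replicate block, 0 genes were called for titled h1.1 h1.2 against titled Col-0 (EF1A-4 log2 fold change 3.47, edgeR adjusted p = 0.0833, and GAPC2 3.75, edgeR adjusted p = 0.0585). Same-numbered libraries did not deviate together, since the correlation of deviations was -0.14 to 0.16 over 18 pairs and exceeded 0.1 in 2.

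Signs turned only without replicates 1 and 3 titled h1.1 h1.2. EF1A-4 then had a log2 fold change of 0.072 in the quadruple mutant against titled h1.1 h1.2, and GAPC2 had -0.89 against titled Col-0, -1.78 against titled cdca7a cdca7b and 2.14 in the quadruple mutant against titled h1.1 h1.2. Without the filter as well, GAPC2 had -0.92 and -1.79, and EF1A-3 -2.55 and -1.85, against titled Col-0 and titled cdca7a cdca7b. The single remaining library was assumed to vary like the other groups. The cause of these changes was not tested. Low gene counts limit all values, since most counts of the 8 genes outside these libraries were at most 10.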
